A study of Mus musculus with 56 samples.

Results

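The collagen genes are described here across liver arrays of mice given antisense gapmers. Their members are the probe sets whose only gene symbol is Col, a number, the letter a and a number, which gave 82 of 45101 probe sets and 42 of 18194 genes. None of the 82 probe sets was shared with another gene. A gene with several probe sets (27 of the 42) was read from the one with the highest mean over all arrays. Changes were taken for genes at an intensity of 32 or more on at least 3 arrays of a set, which kept 11 of the 42 collagens (of 9134 genes in all) on the single-dose arrays and 30 (of 13812) on the 2-week arrays, all 11 among the 30.

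Each of the 56 arrays measured liver RNA of 1 male CD-1 mouse (an outbred stock), 6 to 8 weeks old when dosing began. The mice had received subcutaneous locked nucleic acid (LNA) gapmers, antisense oligonucleotides that let RNase H cut the RNA they bind, at 25 mg/kg, or the vehicle, Dulbecco's phosphate buffered saline (DPBS). The labels call HTS-3 severely toxic, TS-2 toxic and NTS-1 non-toxic, and do not give their sequences or targets. A single dose was followed for 8, 16 and 72 h with TS-2 (4, 3 and 4 mice), NTS-1 (3, 4 and 3 mice) and vehicle (3 mice each time), and for 8 and 16 h with HTS-3 (3 and 4 mice), whose 72 h mice had died or were moribund. The repeated study (called 2 weeks here) gave doses on days 1, 4, 8 and 11 and ended on day 14, with 5 TS-2, 4 NTS-1 and 10 vehicle mice. For the single-dose arrays the 3 or 4 livers ranked highest for minor hypertrophy were picked from 10 dosed mice, so these groups do not stand for all dosed mice. For HTS-3 mouse 3 at 8 h the title gives 8 h and the description 16 h, and the title was followed. Vehicle mouse 1 at 16 h stood apart in markers of other cells. Its neutrophil sum, over only 2 kept markers of 8 listed, was 25698 (211 and 461 in the other vehicle mice). Its macrophage sum, over 7 kept markers, was 29731 (14077 and 13299). In whole liver, fewer cells of a type and less RNA per cell cannot be told apart.

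Collagens are triple-helical proteins of the extracellular matrix, built from alpha chains that each have their own gene. Fibrillar collagens such as types I and III give tissue its tensile strength, type IV forms the meshwork of basement membranes, and beaded-filament, fibril-associated and multiplexin types link these to cells and to one another. In liver the fibrillar chains come mainly from stellate cells and portal fibroblasts, and their build-up is the hallmark of fibrosis.

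The levels of the collagens depended on the set of arrays, so that single-dose and 2-week levels were not compared. On the single-dose arrays no value lay under 4.56, at which 44.1% to 47.3% of each array's probe sets stood, and 28 of the 42 collagens stayed under 32 on all 37 of them. Col1a1, the major chain of type I collagen, was listed at 4.56 on 36 of the 37 single-dose arrays, whereas on the 2-week arrays its intensities ran from 30.02 to 95.03. Several kept genes also repeated 1 value: Col12a1 stood at 37.03 on 28 single-dose arrays and Col16a1 at 99.1 on 17, so their changes there carry little information. Col5a1 stood at 53.4 on 13 of these arrays and Col27a1 at 71.2 on 12, which limits their single-dose values in the same way. The kept single-dose genes were the fibrillar Col1a2, Col3a1, Col5a1 and Col27a1, the network-forming Col4a1 and Col4a2, the beaded-filament Col6a1, the fibril-associated Col12a1, Col14a1 and Col16a1, and the multiplexin Col18a1. The 2-week arrays kept 8 of 11 fibrillar, 6 of 9 network-forming, 4 of 5 beaded-filament, 7 of 9 fibril-associated, both multiplexin and 2 of 4 transmembrane collagens, and Col7a1 of the anchoring fibrils. At the limit of 32, Col4a5 (14.95 to 44.2, on 5 arrays at 32 or more) lay just inside on the 2-week arrays and Col4a3 (21.8 to 33.6, on 1 array) just outside. The other probe set of Col4a5 ran from 40.2 to 59.1 on the 2-week arrays. On the single-dose arrays Col6a1 (23.1 to 290.9, on 31 arrays) lay inside and Col5a2 (7.40 to 118, on 2 arrays) outside.

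After 2 weeks of TS-2, type I, III and V fibrillar chains, the type IV chain Col4a1 and the type VI chain Col6a2 were higher than in vehicle livers, and the type IV chains Col4a2 and Col4a6 and the fibrillar Col27a1 were lower. Of the 30 collagens, 7 were higher and 3 lower at an adjusted p under 0.05 in limma (n = 5 against 10). That is 23.3% and 10.0% of the collagens, beside 23.8% and 15.1% of all genes tested, so neither share exceeded the background of this comparison. The median log2 change over the 30 genes was 0.08, with -0.00 over all genes. By class, 5 of 8 fibrillar collagens were higher and 1 lower (median log2 change 0.54), 1 of 6 network-forming collagens was higher and 2 lower (-0.08), and 1 of 4 beaded-filament collagens was higher (0.33). None of the 7 fibril-associated, 2 multiplexin or 2 transmembrane collagens passed.

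**Figure D1:**
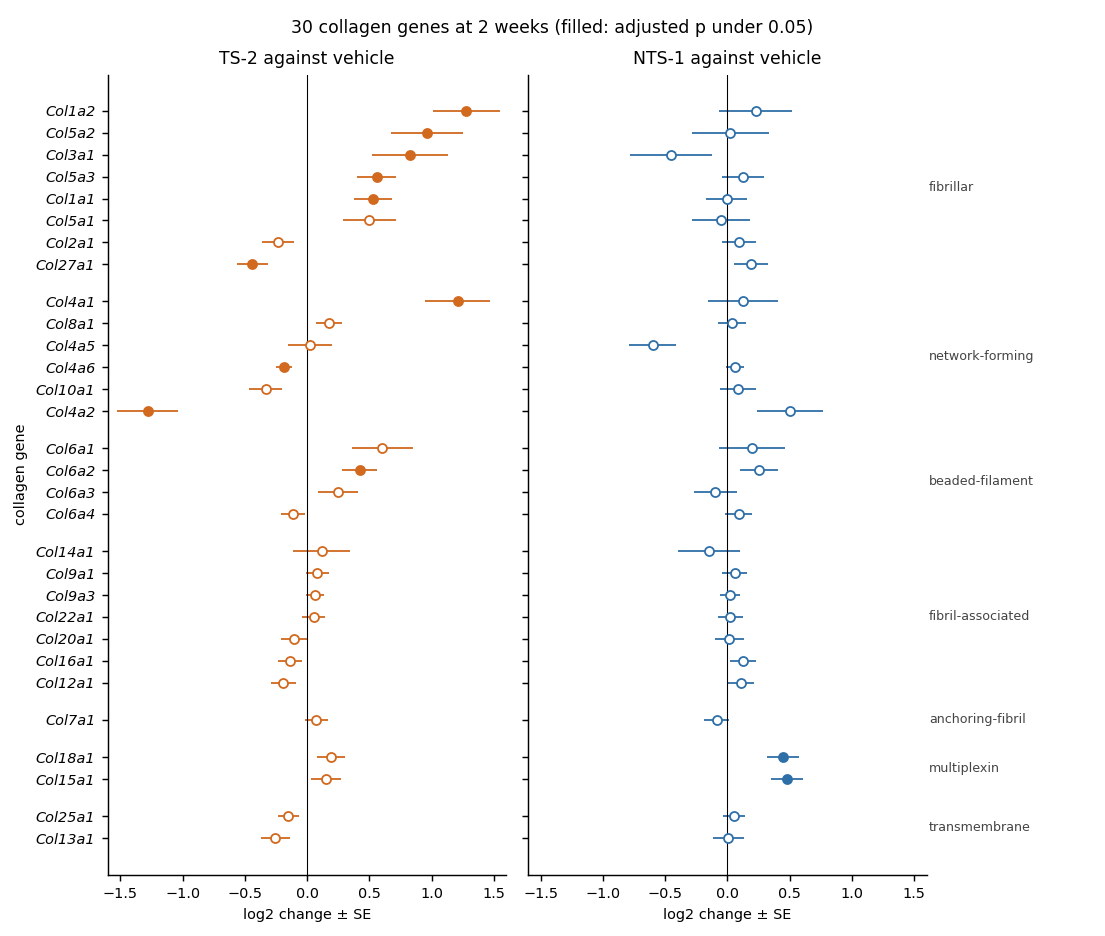
Log2 change (horizontal axis, bars show the SE of the limma fit) of the 30 kept collagen genes at 2 weeks for TS-2 against vehicle (left) and NTS-1 against vehicle (right), grouped by collagen class, with filled points for adjusted p under 0.05. In the left panel Col1a2 (1.28) and Col4a1 (1.21) lie furthest right and Col4a2 (-1.28) furthest left, and in the right panel only the multiplexins Col15a1 and Col18a1 are filled.

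Col1a2, the second chain of type I collagen, had intensities of 307, 455, 1141, 416 and 1012 in TS-2 livers, against 169 to 372 (median 220) in the 10 vehicle livers. Only TS-2 mouse 1 lay within the vehicle range, and mice 3 and 5 were the highest. The mean was 2.43-fold that of vehicle, a log2 change of 1.28 ± 0.27 (SE, adjusted p = 8.99e-04). Its other kept probe set gave a log2 change of 1.21. Col1a1, its partner in the type I trimer, had intensities of 41.4, 48.0, 95.03, 43.9 and 60.7 in TS-2 livers, against 31.6 to 42.8 (median 39.97) in vehicle livers. Here too mouse 1 alone overlapped with vehicle, and Col1a1 was 1.44-fold higher (log2 change 0.53 ± 0.15, adjusted p = 0.00875). Its second probe set, at 0.42, did not pass (adjusted p = 0.161).

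Col3a1, which forms fibrils together with type I, had intensities of 1294, 1375, 4577, 1134 and 2455 in TS-2 livers, against 562 to 1488 (median 1043) in vehicle livers. Mice 3 and 5 stood above every vehicle mouse, and the other 3 lay inside the vehicle range. The change was 1.77-fold (log2 change 0.82 ± 0.30, adjusted p = 0.0369). This call was lost on leaving out TS-2 mouse 3 or 5 or vehicle mouse 2, 3, 5, 6 or 9 (adjusted p = 0.0507 to 0.162). It was also lost under 6 of the 10 alternative settings, among them averaged probe sets (adjusted p = 0.0716), quantile normalization (0.0570) and array weights (0.0927), and the second probe set of Col3a1 stood at 0.54 (adjusted p = 0.154).

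The 3 type V chains sit inside type I fibrils and limit their diameter. Col5a2 had intensities of 58.9, 67.7, 212, 83.0 and 267 in TS-2 livers, against 39.8 to 84.0 (median 53.9) in vehicle livers. Mice 3 and 5 were again outside the vehicle range, the other 3 inside it, and Col5a2 was 1.95-fold higher (log2 change 0.96 ± 0.29, adjusted p = 0.0116, or 0.0560 without TS-2 mouse 5). Col5a3 had intensities of 75.4, 132.5, 80.1, 140 and 81.0 in TS-2 livers, against 53.0 to 78.2 (median 70.0) in vehicle livers. For this gene mice 2 and 4 were the highest, only mouse 1 overlapped with vehicle, and the change was 1.47-fold (log2 change 0.56 ± 0.16, adjusted p = 0.00774). Col5a1, at 0.50 ± 0.22 on the log2 scale, missed the threshold (adjusted p = 0.0735), while 1 of its 2 other kept probe sets passed at 0.58 (adjusted p = 0.00148) and the other stood at 0.07.

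Col27a1, a fibrillar collagen best known from cartilage, went the other way. Its intensities were 199, 145, 171, 149 and 145 in TS-2 livers, against 170 to 244 (median 220) in vehicle livers. Mice 1 and 3 lay within the vehicle range and the other 3 below it. The fall was 1.36-fold (log2 change -0.44 ± 0.13, adjusted p = 0.0094), and its second probe set fell by 0.52 on the log2 scale (adjusted p = 0.00281). Col2a1, the cartilage fibril chain, stood at -0.23 ± 0.13 (adjusted p = 0.157).

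**Figure D2:**
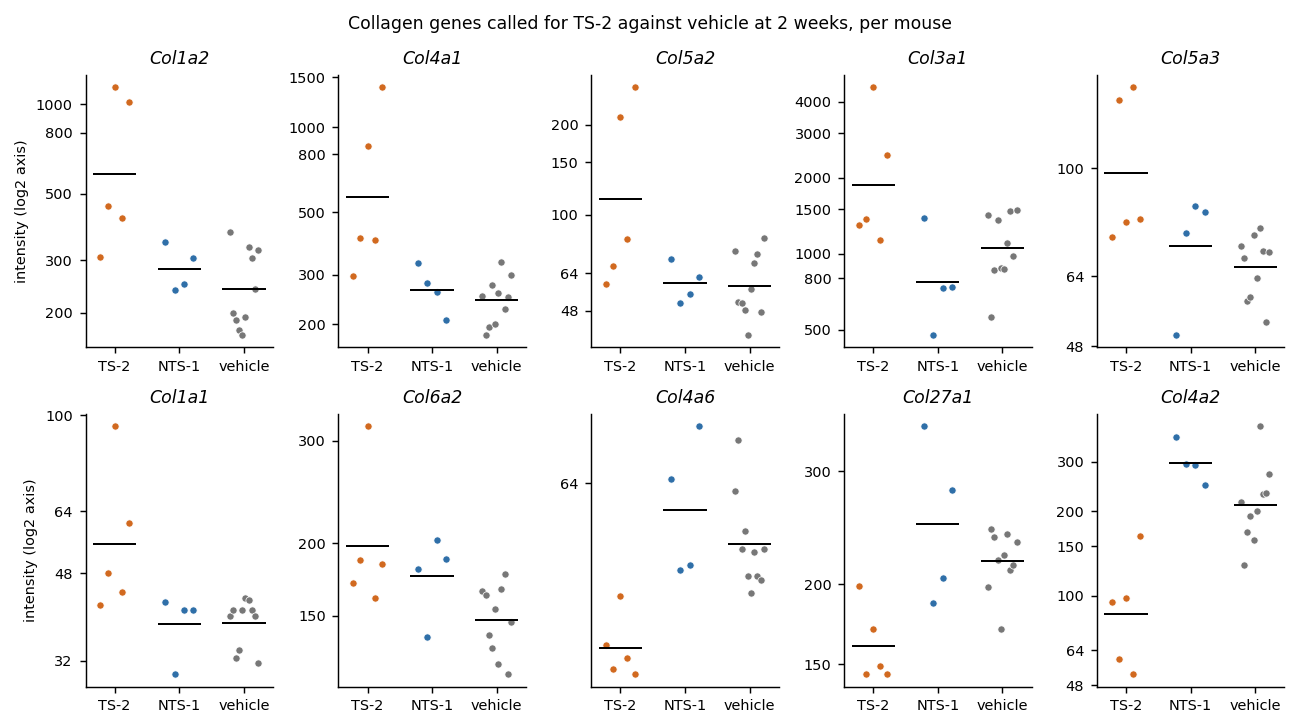
Intensity on a log2 axis of the 10 collagen genes called for TS-2 against vehicle at 2 weeks, 1 point per mouse in TS-2 (5), NTS-1 (4) and vehicle (10) livers, with a bar at the geometric mean. TS-2 mice 3 and 5 are the upper pair of TS-2 points for Col1a2, Col3a1, Col4a1 and Col5a2, and the TS-2 and vehicle points of Col4a6 do not overlap.

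Type IV collagen was split. The main trimer of basement membranes holds chains from both Col4a1 and Col4a2, a pair of genes that lie head to head on chromosome 8 (GRCm38.p6, Col4a1 at chr8:11198423-11312889 on the minus strand and Col4a2 at chr8:11312805-11449287 on the plus strand). Col4a1 had intensities of 296, 404, 855, 399 and 1387 in TS-2 livers, against 183 to 332 (median 251) in vehicle livers, with mouse 1 alone inside the vehicle range. The rise was 2.31-fold (log2 change 1.21 ± 0.26, adjusted p = 0.00105), and its second probe set was higher as well (0.85, adjusted p = 9.33e-04). Col4a2 had intensities of 95.1, 59.4, 98.2, 52.5 and 163 in TS-2 livers, against 129 to 401 (median 208) in vehicle livers. Mouse 5, the highest for Col4a1, was the only one to reach the vehicle range of Col4a2. The fall of Col4a2 was 2.43-fold (log2 change -1.28 ± 0.24, adjusted p = 3.40e-04). The gene has a single probe set on the array, so no second one bears on this change.

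The promoter windows of this pair are shown because the genes start beside each other while their transcripts moved in opposite directions. In the RefSeq table for GRCm38.p6, which held 33 of the 42 collagens, each window runs from 250 bases before to 50 after the start. The starts used are 11312826 for Col4a1 and 11312805 for Col4a2, which are 21 bases apart. For Col4a1 this start lies inside the gene span printed above, which ends at 11312889. With these starts the windows share 78 bases, printed in capitals on each gene's own strand.
Col4a1 (chr8:11312777-11313076, minus strand): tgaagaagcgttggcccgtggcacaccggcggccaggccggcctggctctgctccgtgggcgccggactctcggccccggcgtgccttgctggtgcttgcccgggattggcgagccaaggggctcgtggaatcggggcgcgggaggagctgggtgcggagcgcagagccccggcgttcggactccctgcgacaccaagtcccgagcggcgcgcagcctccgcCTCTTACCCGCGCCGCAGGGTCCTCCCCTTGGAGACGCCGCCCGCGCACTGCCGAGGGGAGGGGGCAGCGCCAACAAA
Col4a2 (chr8:11312555-11312854, plus strand): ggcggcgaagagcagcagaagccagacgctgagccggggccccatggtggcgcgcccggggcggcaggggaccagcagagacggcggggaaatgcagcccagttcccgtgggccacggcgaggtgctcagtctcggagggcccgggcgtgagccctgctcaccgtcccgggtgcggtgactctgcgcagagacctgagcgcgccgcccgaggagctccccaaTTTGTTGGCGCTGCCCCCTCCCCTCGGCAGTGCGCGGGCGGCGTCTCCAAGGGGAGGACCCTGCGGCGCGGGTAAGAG
The letters GGGCGG, read on both strands, occurred once in the window of Col4a1 and 3 times in that of Col4a2, with 1 match in the shared stretch. They were found in 21 of the 33 collagen windows and in 35.9% of all 27025 windows. CCAAT occurred once in each of the 2 windows (37.9% of all windows) and TATAAA in neither (14.2% of all windows).

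Among the other network-forming chains, Col4a6, a chain of specialised basement membranes, had intensities of 52.4, 50.9, 55.7, 51.6 and 50.6 in TS-2 livers, against 55.9 to 67.6 (median 58.9) in vehicle livers. The groups did not overlap, but the change was small (1.14-fold lower, log2 change -0.19 ± 0.06, adjusted p = 0.0267), and the call was lost without TS-2 mouse 2, 4 or 5 (adjusted p = 0.0563 to 0.0645). Its second probe set, at -0.14, did not pass (adjusted p = 0.131). Col10a1, a collagen of growth plate cartilage, was at -0.33 ± 0.14 (adjusted p = 0.0571), Col8a1 at 0.18 ± 0.10 (adjusted p = 0.181), and Col4a5 at 0.02 ± 0.18 (adjusted p = 0.937). The other kept probe set of Col4a5 stood at -0.13 (adjusted p = 0.261).

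Type VI collagen forms beaded filaments at the borders of basement membranes and fibrils. Col6a2 had intensities of 171, 187, 318, 161 and 184 in TS-2 livers, against 119 to 177 (median 150) in vehicle livers. Mice 1 and 4 lay within the vehicle range and mouse 3 far above it. Col6a2 was 1.34-fold higher (log2 change 0.42 ± 0.14, adjusted p = 0.0213, or 0.0942 without TS-2 mouse 3), and its second probe set stood at 0.72 (adjusted p = 0.00841). Col6a1 had intensities of 126, 142, 265, 122 and 95.2 in TS-2 livers, against 49.0 to 142 (median 98.3) in vehicle livers. Its log2 change of 0.60 ± 0.25 missed the threshold (adjusted p = 0.0574), as did that of Col6a3 at 0.25 ± 0.16 (adjusted p = 0.246). The fibril-associated Col14a1, which binds to fibril surfaces, stood at 0.12 ± 0.23 (adjusted p = 0.720). The 7 fibril-associated genes lay between -0.19 and 0.12.

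After 2 weeks of NTS-1, the collagens that moved were the multiplexins, basement membrane proteins whose C-terminal ends can be released as endostatin-like fragments. Of the 30 collagens 2 were higher and 0 lower (6.67% and 0%), beside 2.10% and 3.33% of all genes tested, and the median log2 change was 0.06, with 0.01 over all genes (limma, n = 4 against 10, with 3 of the 30 collagens at an unadjusted p under 0.05). Col15a1 had intensities of 55.4, 80.3, 50.25 and 80.55 in NTS-1 livers, against 41.9 to 52.7 (median 46.6) in vehicle livers. Mouse 3 lay inside the vehicle range, and Col15a1 was 1.39-fold higher (log2 change 0.48 ± 0.13, adjusted p = 0.0392). Col18a1 had intensities of 4517, 4739, 5114 and 4551 in NTS-1 livers, against 2683 to 5017 (median 3452) in vehicle livers. Vehicle mouse 7 (5017) alone reached the NTS-1 values, and Col18a1 was 1.36-fold higher (log2 change 0.45 ± 0.13, adjusted p = 0.0424). The second probe set of Col18a1, at 0.44, did not pass (adjusted p = 0.116).

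Both multiplexin calls lay close to the threshold. The Col15a1 call was lost without NTS-1 mouse 2 or 4 or vehicle mouse 3, 4, 5, 6, 8, 9 or 10 (adjusted p = 0.0507 to 0.152). The Col18a1 call was lost without any 1 of the 4 NTS-1 mice or vehicle mouse 3, 4, 5, 6, 8, 9 or 10 (adjusted p = 0.0614 to 0.135). With TS-2 the same genes had log2 changes of 0.15 ± 0.12 (Col15a1, adjusted p = 0.351) and 0.19 ± 0.12 (Col18a1, adjusted p = 0.202). Both sequences were set against the same 10 vehicle mice. Col4a2 had a log2 change of 0.50 ± 0.26 with NTS-1 (adjusted p = 0.287) and Col4a5 one of -0.60 ± 0.19 (adjusted p = 0.0681), and Col3a1, at -0.45 ± 0.33 (adjusted p = 0.483), was the next lowest. The other kept probe set of Col4a5, at 32 or more on all 19 arrays, stood at -0.02 (adjusted p = 0.945).

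TS-2, the sequence called toxic, was also compared directly with NTS-1 at the same dose and schedule for 2 weeks (n = 5 against 4). Of the 30 collagens 5 were higher and 3 lower (16.7% and 10.0%), beside 14.8% and 7.13% of all genes tested. Col4a2 had the largest difference, with intensities of 52.5 to 163 in TS-2 livers and 248 to 366 in NTS-1 livers, wholly apart (3.44-fold lower, log2 difference -1.78 ± 0.30, adjusted p = 7.68e-04). Col3a1 was 2.42-fold higher in TS-2 livers (1.28 ± 0.37, adjusted p = 0.0201), Col4a1 2.12-fold (1.08 ± 0.32, adjusted p = 0.0210), Col1a2 2.07-fold (1.05 ± 0.33, adjusted p = 0.0290) and Col1a1 1.45-fold (0.54 ± 0.18, adjusted p = 0.0436). Col27a1 was 1.55-fold lower (-0.63 ± 0.16, adjusted p = 0.00826) and Col4a6 1.19-fold lower (-0.25 ± 0.08, adjusted p = 0.0309). Col4a5 was higher (0.62 ± 0.22, adjusted p = 0.0451), with intensities of 24.4 to 41.5 in TS-2 livers and 14.95 to 24.85, all under 32, in NTS-1 livers. The other kept probe set of Col4a5, at 32 or more on all 19 arrays, did not show this rise. Against vehicle it stood at -0.13 with TS-2 and -0.02 with NTS-1, neither passing. Col15a1 (-0.33 ± 0.15, adjusted p = 0.116) and Col18a1 (-0.25 ± 0.14, adjusted p = 0.202) did not pass. Without NTS-1 mouse 4 the count of 8 was 2 (Col4a2 and Col27a1), and without TS-2 mouse 5 it was 3 (these and Col4a1). It was 5 without NTS-1 mouse 1 or 2 or TS-2 mouse 3.

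After a single dose no collagen passed in any of the 8 comparisons with same-time vehicle. With HTS-3 the calls were 0 of 11 at 8 h, beside 0.887% of all genes tested, and 0 of 11 at 16 h, beside 16.9%. With TS-2 they were 0 of 11 at 8 h (0% of all genes, 381 of them at an unadjusted p under 0.05), at 16 h (0.0109%) and at 72 h (0.241%). With NTS-1 they were 0 of 11 at 8 h (0.876%), at 16 h (0.263%) and at 72 h (0%, 225 at an unadjusted p under 0.05). At an unadjusted p under 0.05, limma had 2 of 11 collagens for HTS-3 at 16 h (Col5a1 and Col6a1), 1 for TS-2 at 16 h (Col27a1) and 1 for TS-2 at 72 h (Col4a2), and 0 in the other 5 comparisons.

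**Figure D3:**
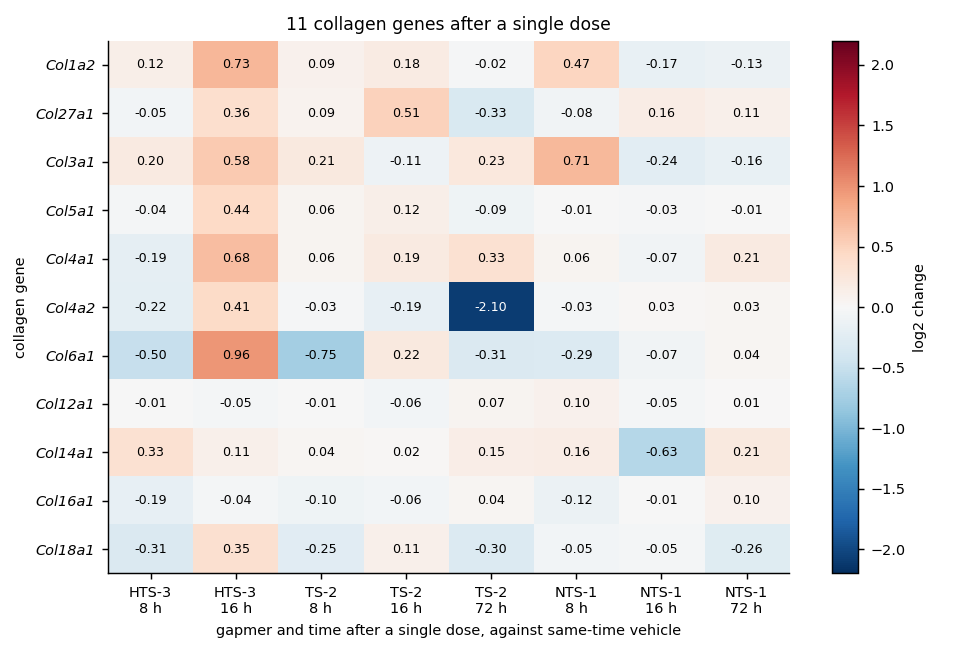
Log2 change of the 11 kept collagen genes (rows, by class) after a single dose of HTS-3, TS-2 or NTS-1 against same-time vehicle (columns), with the value printed in each cell and on the colour scale. No cell passed the test, and the deepest colour is that of Col4a2 at 72 h after TS-2 (-2.10).

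At 16 h after HTS-3, 9 of the 11 collagens had a log2 change above 0, with a median of 0.41 beside 0.07 over all genes (n = 4 against 3). HTS-3 mouse 4 was the highest of its group for 8 of the 11 genes, and its median log2 difference from the vehicle mean was 1.51, against 0.45, -0.11 and -0.09 in mice 1, 2 and 3. Without mouse 4 the median was 0.11, and without vehicle mouse 1, which stood apart in neutrophil and macrophage markers, it was 0.24. In the HTS-3 mice the neutrophil sums were 154 to 319 and the macrophage sums 9081 to 13346, and their part in the collagen values was not tested. Without HTS-3 mouse 2 Col5a1 was called, and without mouse 3 both Col5a1 and Col6a1. Over all genes the 4 mice had medians of 0.04, 0.07, 0.03 and 0.08, close together.

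Among the fibrillar chains at this time, Col1a2 had intensities of 200, 93.3, 95.9 and 672 in HTS-3 livers, against 102, 132 and 106 in vehicle livers, with 2 HTS-3 mice above and 2 below all vehicle mice (log2 change 0.73 ± 0.42, adjusted p = 0.248). Col3a1 had intensities of 2773, 710, 1095 and 4294 in HTS-3 livers, against 1125, 1300 and 1084 in vehicle livers, with 2 HTS-3 mice above all vehicle mice (0.58 ± 0.40, adjusted p = 0.350). Col5a1 had 71.8, 53.1, 53.8 and 125 in HTS-3 livers, against 49.2, 55.0 and 53.4 in vehicle livers (0.44 ± 0.19, adjusted p = 0.104).

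Of the collagens at borders and membranes, Col6a1 had intensities of 78.8, 40.5, 34.3 and 290.9 in HTS-3 livers, against 33.8, 42.1 and 40.1 in vehicle livers (log2 change 0.96 ± 0.43, adjusted p = 0.126). Col4a1 had 873, 671, 839 and 2109 in HTS-3 livers, against 486, 709 and 724 in vehicle livers (0.68 ± 0.38, adjusted p = 0.238). Col4a2 had 350, 244, 296 and 991 in HTS-3 livers, against 214, 325 and 383 in vehicle livers (0.41 ± 0.66, adjusted p = 0.731). Its change had the same sign as that of Col4a1, but HTS-3 mouse 4 alone lay outside the vehicle range of Col4a2. Col18a1, a collagen that hepatocytes also make, had 5824, 3854, 4229 and 13278 in HTS-3 livers, against 3032, 5973 and 5654 in vehicle livers (0.35 ± 0.40, adjusted p = 0.619). For each of these 4 genes mouse 4 was the highest of all mice at that time, and at least 1 other HTS-3 mouse lay inside or below the vehicle range.

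**Figure D4:**
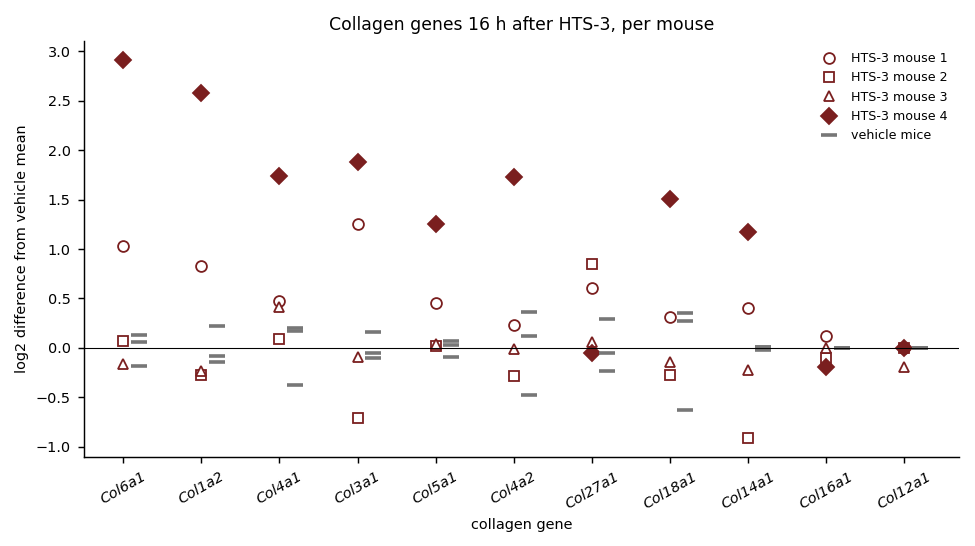
Log2 difference of each HTS-3 mouse at 16 h from the mean of the 3 vehicle mice (vertical axis), for the 11 kept collagen genes ordered by mean difference, with the vehicle mice as grey bars. Mouse 4 (filled diamonds) is the highest for 8 genes, up to 2.92 for Col6a1, and lies near 0 for Col27a1, Col16a1 and Col12a1.

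At 8 h after HTS-3 the median log2 change was -0.05, beside 0.01 over all genes. HTS-3 mouse 3 was the lowest of its group for 9 of the 11 genes, including Col4a1 (221, with 688 and 542 in the other HTS-3 mice and 319, 498 and 768 in vehicle livers) and Col4a2 (67.9, with 427 and 328 in the other HTS-3 mice and 129, 245 and 475 in vehicle livers). This is the mouse with 2 times in its labels. With it moved to 16 h, the medians were 0.15 at 8 h and 0.24 at 16 h. Col14a1 had the highest change at 8 h (0.33 ± 0.38, adjusted p = 0.883) and Col6a1 the lowest (-0.50 ± 0.46, adjusted p = 0.817).

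At 72 h after TS-2, Col4a2 had intensities of 18.9, 34.7, 205 and 95.6, against 137.5, 512 and 238 in vehicle livers. TS-2 mice 1, 2 and 4 lay below every vehicle mouse, and mouse 3 was inside the vehicle range. The log2 change was -2.10 ± 0.66 with an unadjusted p of 0.00362, which did not pass over all genes (adjusted p = 0.542, and 0.06915, without TS-2 mouse 3, to 1 over the omissions and settings run). Set against NTS-1 at 72 h (186, 249 and 389), the log2 difference was -2.13 ± 0.66 (adjusted p = 0.281). Col4a1 did not share it: TS-2 livers had 523, 592, 889 and 559, against 328, 751 and 500 in vehicle livers (0.33 ± 0.38, adjusted p = 1). Mouse 3 also stood apart in markers of sinusoidal endothelium, whose summed intensity over 8 genes was 2687, against 10828 to 12128 in the other TS-2 mice and 8947 to 10878 in vehicle livers, and their part in the Col4a2 values was not tested. At 8 and 16 h after TS-2, Col4a2 stood at log2 changes of -0.03 ± 0.66 and -0.19 ± 0.71.

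**Figure D5:**
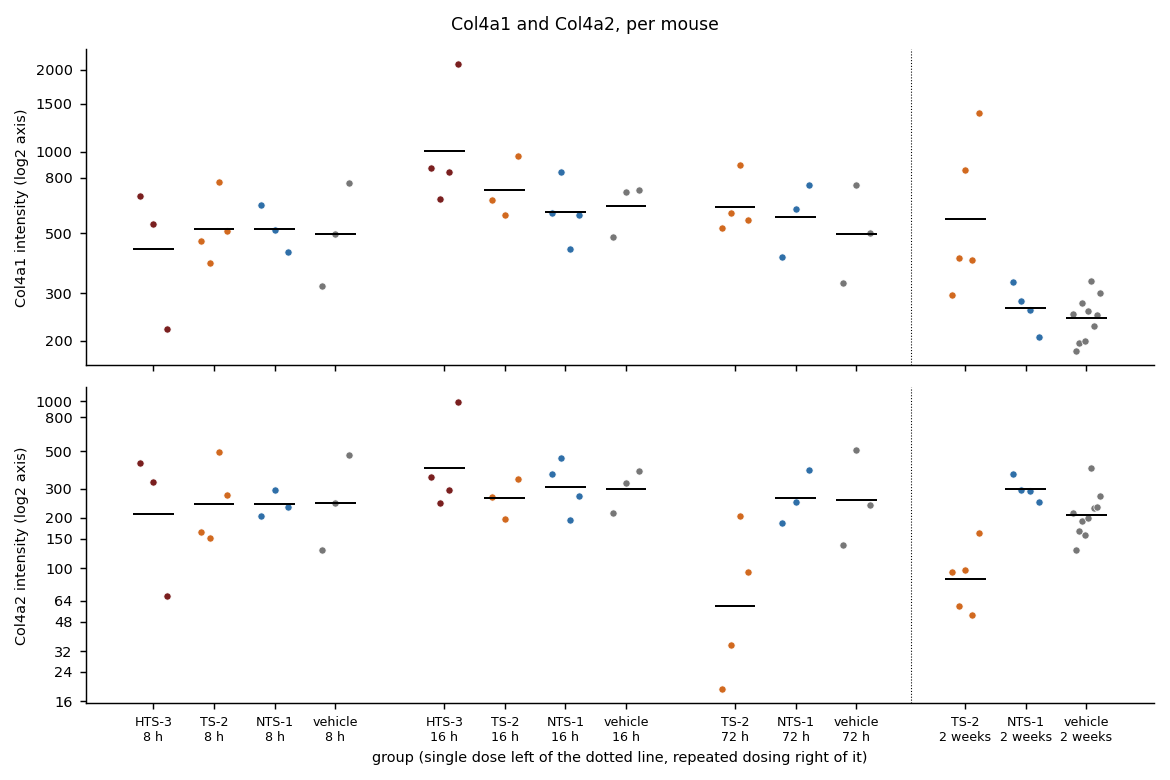
Intensity on a log2 axis of Col4a1 (top) and Col4a2 (bottom) in every mouse, by gapmer and time, with a bar at the geometric mean and vehicle at the right of each time. At 72 h 3 of the 4 TS-2 points of Col4a2 and 4 of the 5 at 2 weeks lie below all vehicle points of their time, while Col4a1 in TS-2 livers is above most vehicle points at 2 weeks.

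The remaining single-dose changes were small or uneven. At 16 h after TS-2, Col27a1 had intensities of 123.5, 90.2 and 105 in TS-2 livers, against 62.6, 71.2 and 90.5 in vehicle livers (log2 change 0.51 ± 0.23, adjusted p = 1). At 72 h after TS-2, Col27a1 had 68.7, 42.0, 48.85 and 68.8 in TS-2 livers, against 71.2, 71.2 and 68.7 in vehicle livers (-0.33 ± 0.21, adjusted p = 1). Its sign at 16 h was opposite to that of its fall at 2 weeks, and its sign at 72 h was the same. At 8 h after TS-2 the lowest was Col6a1, with 50.5, 34.2, 31.5 and 34.7 in TS-2 livers, against 50.4, 53.7 and 89.6 in vehicle livers (-0.75 ± 0.43, adjusted p = 1). At 8 h after NTS-1, Col3a1 had 2797, 2069 and 2079 in NTS-1 livers, against 1012, 1331 and 2055 in vehicle livers, with no overlap (0.71 ± 0.42, adjusted p = 1), and Col1a2 had a change of 0.47 ± 0.45. At 16 h after NTS-1, Col14a1 had 327, 435, 366 and 493.1 in NTS-1 livers, against 624, 610 and 626 in vehicle livers, again with no overlap (-0.63 ± 0.36, adjusted p = 1). The medians over the 11 genes were 0.04, 0.11 and -0.02 after TS-2 and -0.01, -0.05 and 0.03 after NTS-1 at 8, 16 and 72 h. Without vehicle mouse 1 those at 16 h were 0.01 after TS-2 and -0.21 after NTS-1.

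Between sequences at matched single-dose times, 1 collagen passed in 7 comparisons by limma. Col5a1 was 1.39-fold higher with HTS-3 than with NTS-1 at 16 h (71.8, 53.1, 53.8 and 125, against 49.0, 53.4, 53.7 and 49.4, log2 difference 0.47 ± 0.17, adjusted p = 0.0495), which is 1 of 11 collagens beside 21.4% of all genes. This call was lost with averaged probe sets, where the 1 call was Col27a1, without HTS-3 mouse 1 or 4 or NTS-1 mouse 1, 3 or 4, and without NTS-1 mouse 2 Col6a1 was called in its place. Without HTS-3 mouse 2 there were 5 calls (Col1a2, Col3a1, Col5a1, Col6a1 and Col14a1), without mouse 3 there were 3 (Col1a2, Col5a1 and Col6a1). With all mice, limma had 6 of 11 collagens at an unadjusted p under 0.05 in this comparison, beside 3045 of 9134 genes. HTS-3 against NTS-1 at 8 h had 0 of 11 collagens (1.16% of all genes), HTS-3 against TS-2 had 0 at 8 h (0.526%) and 0 at 16 h (13.0%), and TS-2 against NTS-1 had 0 at 8 h (0.865%), 0 at 16 h (0.493%) and 0 at 72 h (0.263%). Of these 6 comparisons TS-2 against NTS-1 at 72 h had 2 collagens at an unadjusted p under 0.05, Col4a2 and Col27a1, the others 0, and HTS-3 against TS-2 at 16 h called Col3a1 without HTS-3 mouse 2. Tests of whether a gapmer's change differed between times also called no collagen, with 0 of 11 for HTS-3 at 16 h against 8 h (3.23% of all genes), for TS-2 at 16 h (0%) and 72 h (0.0766%) against 8 h, and for NTS-1 at 16 h (0.0766%) and 72 h (0.339%) against 8 h, and at an unadjusted p under 0.05 they had 1 collagen each for HTS-3 and for TS-2 at 72 h.

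Genes for the making, breakdown and sensing of collagen were read in the same comparisons. At 2 weeks after TS-2, of 22 kept genes for collagen processing and crosslinking 4 were higher and 1 lower, shares under the 23.8% and 15.1% of all genes, with a median log2 change of 0.11. P4ha2, a catalytic subunit of the prolyl hydroxylase that stabilises the triple helix, had intensities of 229.5, 306, 289, 295 and 465 in TS-2 livers, against 65.0 to 114 (median 93.3) in vehicle livers, wholly apart (3.35-fold higher, log2 change 1.75 ± 0.15, adjusted p = 1.20e-07). P4ha1, an alternative catalytic subunit of this hydroxylase, was 1.41-fold higher (adjusted p = 0.0244), and Plod3, a lysyl hydroxylase, 1.26-fold higher (adjusted p = 0.0220). Bmp1, which cleaves the C-terminal propeptide of procollagens, was lower, with 534, 432, 620, 348 and 474 in TS-2 livers, against 615 to 798 (median 693) in vehicle livers, mouse 3 alone within the vehicle range (1.48-fold, log2 change -0.57 ± 0.10, adjusted p = 1.79e-04). The collagen chaperone Serpinh1 (0.35 ± 0.22, adjusted p = 0.215), the crosslinking oxidase Lox (0.14 ± 0.13, adjusted p = 0.414) and Pcolce (0.31 ± 0.14, adjusted p = 0.0902) did not pass.

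Of the 9 kept genes for collagen breakdown and its inhibitors, 2 were higher and 0 lower, beside 23.8% and 15.1% of all genes. These were Timp1, an inhibitor of matrix metalloproteinases (40.01, 53.1, 57.6, 52.2 and 322 in TS-2 livers, against 33.4 to 58.3 in vehicle livers, 1.89-fold, adjusted p = 0.0280), and the membrane collagenase Mmp14 (1.28-fold, adjusted p = 0.0383). For Timp1 mouse 5 alone lay outside the vehicle range. Of 20 other matrix genes 5 were higher and 2 lower, near that background. Lum, a fibril-binding proteoglycan, was 2.32-fold higher (adjusted p = 4.93e-04), Bgn 1.92-fold, the basement membrane linker Nid1 1.70-fold and fibronectin (Fn1) 1.67-fold. The laminin chain genes Lama4 and Lama5 were 1.345-fold and 1.31-fold lower.

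Among signals that act on matrix-producing cells, 5 of 11 were higher and 0 lower, beside 23.8% and 15.1% of all genes, with a median of 0.41. Ccn2, a matrix protein induced by TGF-beta, had 211, 494, 385, 230 and 1079 in TS-2 livers, against 81.7 to 209 (median 120) in vehicle livers, with no overlap (3.15-fold, log2 change 1.65 ± 0.33, adjusted p = 5.51e-04). Smad7 (1.77-fold), Pdgfra (1.74-fold) and Tgfbr2 (1.73-fold) also passed, whereas Tgfb1 itself did not (0.18 ± 0.26, adjusted p = 0.624). The collagen-binding integrin Itga1 was the only 1 of 5 kept collagen receptors to pass (1.44-fold higher, adjusted p = 0.00363, beside the same background). After NTS-1 at 2 weeks these 5 lists held 1 call in all, Sparc, a collagen-binding matrix protein (1.93-fold lower, adjusted p = 0.0424), beside 2.10% of all genes higher and 3.33% lower. P4ha2 (0.47 ± 0.16, adjusted p = 0.0852) and Mmp14 (0.40 ± 0.14, adjusted p = 0.0998) had the same sign as after TS-2 but did not pass. Ccn2 had the opposite sign (-0.79 ± 0.36, adjusted p = 0.211).

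At 16 h after HTS-3, where 16.9% of all genes were called, the processing list had 1 of 13 genes higher and 0 lower. This was P4ha2, with 69.8, 61.8, 84.9 and 153 in HTS-3 livers, against 36.3, 39.65 and 36.03 in vehicle livers, wholly apart (2.32-fold, adjusted p = 0.0494). Tgfbr2, the type II TGF-beta receptor, had 76.55, 73.1, 128 and 163 in HTS-3 livers, against 511, 523 and 506 in vehicle livers, again wholly apart (4.94-fold lower, adjusted p = 2.57e-06). No gene of the breakdown (3), other matrix (10) or receptor (3) lists passed there. In the TS-2 and NTS-1 single-dose comparisons no gene of these lists passed.

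Cell markers were read beside the collagens, with 23.8% of all genes higher and 15.1% lower after TS-2 at 2 weeks, 2.10% and 3.33% after NTS-1, and 16.9% called after HTS-3 at 16 h. The 12 stellate cell markers summed to 7616.5 to 12175 in TS-2 livers, 6820 to 9310 in NTS-1 livers and 6619 to 11236 in vehicle livers, with 2 higher after TS-2 (Dcn and Lhx2, median 0.15) and 0 after NTS-1. Dcn is also counted among the other matrix genes above. After TS-2 the stellate marker Lrat went the other way without passing (-0.40 ± 0.18, adjusted p = 0.0922), and Des stood at 0.09 ± 0.08 (adjusted p = 0.450). The 6 myofibroblast markers summed to 441.5 to 1697.5 in TS-2 livers, with 910 in mouse 3 and 1697.5 in mouse 5, against 484 to 834 in vehicle livers, and Acta2, the classical marker, had a log2 change of 0.61 ± 0.36 (adjusted p = 0.184). Of these markers only Timp1 passed (0.92 ± 0.32, adjusted p = 0.0280). It is also on the breakdown list above, and its high value in mouse 5 is part of that mouse's sum. Of the 8 macrophage markers, Marco and Cd68 were higher after TS-2. The 8 summed to 2180 to 3713 in TS-2 mice 1 to 4, inside the vehicle range of 1638 to 6269, and to 13127 in mouse 5. Sinusoidal endothelium, a source of type IV collagen, had 7 of 9 markers lower after TS-2 (median -1.02, sums of 1535 to 3856, against 3613 to 6510.5 in vehicle livers) and 4 of 9 lower after NTS-1 (median -0.61, sums of 2351 to 3392). At 16 h after HTS-3, 3 of its 8 kept markers were lower and Stab1 higher, with a sum of 7375 in mouse 4, 10407 to 12756 in mice 1 to 3 and 12538 to 14969 in vehicle livers. The myofibroblast marker Tagln was also lower then (log2 change -0.96 ± 0.33, adjusted p = 0.0403), while Acta2 did not pass (-0.65 ± 0.34, adjusted p = 0.194). Cd5l and Vsig4 of the macrophage markers (adjusted p = 0.0271 and 0.0153) and S100a8 of the neutrophil markers (0.0471) were lower too. Vehicle mouse 1 stood apart in the macrophage and neutrophil sums. The hepatocyte markers, which define the labelled tissue, had 1 of 7 lower after TS-2 at 2 weeks (Apoa1, 1.11-fold). The part of these cells in the collagen values was not tested.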

How the data were processed

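Per the labels' protocols, liver RNA was labelled with biotin and hybridised 1 mouse per array. The authors made the deposited intensity with RMA, per the submitters' processing notes. The values lie on a linear scale, and RMA's version is not given in the sources used. They were converted to log2 here, as log2 of the deposited intensity. Probe sets were named from the series' platform annotation (34958 with 1 gene, 932 with several, 9211 with none), with symbols updated by gene ID. The 37 single-dose arrays (11 groups) and 19 2-week arrays (3 groups) were fitted apart with limma 3.58.1 in R 4.3.3, 1 model per set with empirical Bayes moderation, Benjamini-Hochberg adjustment within a comparison over all genes kept and a threshold of 0.05. The fit was tested on simulated data. Within a group the replicates are separate mice, and their number limits the precision. The members and all gene lists were chosen with earlier results of these data known. Named were collagens past the test, the 3 largest rises and falls of each comparison with vehicle, a fixed panel of collagens, and, of other lists, up to 4 called genes and a fixed panel. Replicate numbers were not taken to pair the mice, as nothing in the labels pairs them. In 0 of 10 comparisons did every same-number correlation exceed 0.1 (-0.48 to 0.41 over 33 pairs). With so few pairs in each comparison, this cannot exclude pairing. The alternatives averaged the probe sets of a gene, or took each probe set alone, no filter, quantile normalization, array weights, a trended prior, the compared groups alone, a replicate block, each mouse left out, vehicle mice 1 to 5 or 6 to 10 and 1 sample moved between times.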

Additional observations from a re-analysis of the deposited data

Results flagged for a closer look

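In 84 groups of 4 to 10 mice, 1 mouse stood far from its group for a named collagen in 6, and chance alone flags about 1 in 20 groups. Col6a2 at 2 weeks after TS-2 had mouse 3 at 318 and the next mouse at 187. Col1a1 at 2 weeks after NTS-1 had mouse 2 at 30.02 and the next at 40.5. The latter is also its median over the 2-week arrays, and Col1a1 repeated 1 value on 5 of these 19 arrays. Col14a1 at 72 h after TS-2 had mouse 3 at 852 and the next at 447. Col5a1 at 8 h after TS-2 had mouse 3 at 68.6 with the others at 53.4, and Col27a1 in the same group had mouse 2 at 101 with the others at 71.2. In both, the others stood at the value that the gene repeats on 13 and 12 of the single-dose arrays, so with no spread among them any mouse off that value would stand out. Col6a1 at 16 h after NTS-1 had mouse 2 at 53.9 and the next at 33.3. For 2 genes every TS-2 mouse lay on one side of the vehicle mean at 1 single-dose time and on the opposite side at 2 weeks. Col27a1 changed by 0.51 at 16 h and by -0.44 at 2 weeks, a difference of -0.95, but at 72 h it was at -0.33 with all 4 TS-2 mice below the vehicle mean, the side of the 2-week fall. Col6a1 changed by -0.75 at 8 h and by 0.60 at 2 weeks, a difference of 1.35, and lay at 0.22 at 16 h and -0.31 at 72 h with mice on both sides of the vehicle mean. Neither difference was tested, because the sets were fitted apart.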

How the results depend on the processing

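Of the 10 collagens called for TS-2 at 2 weeks, Col1a2, Col4a1 and Col4a2 stayed called under all 10 alternative settings and all 15 single omissions. The count was 4 with vehicle mice 6 to 10 as controls (these and Col27a1), 8 to 14 with 1 mouse left out and 7 with the replicate block. Over all genes the main fit called 5372, against 4003 with vehicle mice 6 to 10 and 4204 with the replicate block. The Col4a6 and Col6a2 calls were also lost with quantile normalization. The 2 calls for NTS-1 at 2 weeks were 1 with averaged probe sets, 0 with the replicate block or with vehicle mice 1 to 5 or 6 to 10, and 0 to 3 with 1 mouse left out. Over all 13812 genes, 750 were called in the main fit, 0 with the replicate block and 1 with vehicle mice 1 to 5. Those 2 losses are therefore not particular to the collagens. With vehicle mice 6 to 10, 706 genes were called. For TS-2 against NTS-1 at 2 weeks the 8 calls were 5 with the mean of probe sets, 1 with the replicate block (Col4a2) and 2 to 11 with 1 mouse left out. For HTS-3 against vehicle at 16 h the 0 calls were 1 with the mean of probe sets (Col27a1), 2 without a filter (Col13a1 and Col19a1), 1 with quantile normalization (Col5a1) and 0 to 2 with 1 mouse left out. For HTS-3 against NTS-1 at 16 h the 1 call was 0 with each probe set alone, no filter, array weights, the trended prior or the moved sample, 2 with quantile normalization, Col27a1 in place of Col5a1 with the mean of probe sets, and 0 to 5 with 1 mouse left out. Array weights gave 1 call for TS-2 against NTS-1 at 72 h (Col4a2), and HTS-3 against TS-2 at 16 h had 0 to 1 with 1 mouse left out. The other counts and the medians over collagens kept their value or moved by less than the spread between mice, with medians of 0.11 to 0.58 for HTS-3 at 16 h with 1 mouse left out, and -0.00 without a filter. The replicate block changed no other count beyond 1.5 times. No called gene reversed its direction. The cause of these changes was not tested, and the number of mice limits every comparison.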
